A study of Mus musculus with 2 samples.

Results

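Glutathione S-transferases were examined in mouse lung fibroblasts after saline or bleomycin, a DNA-damaging drug that scars rodent lungs. The genes were taken by symbol: Gstm1, Gstm2, Gstm5, Gsta4, Gstt1, Gstt2, Gsto1, Gstp1, Gstk1 and Gstz1, which are 10 of the 16040 genes in the deposited count table, and all 10 were found. Both groups were mice of the Col1a2-EGFP strain, in which green fluorescent protein reports on a collagen gene, and both were sampled at day 14 after an injection into the trachea. The saline group and the bleomycin group gave 1 library each, made from cells of 3 mice, so the spread between mice cannot be seen. Cells that carried the reporter and lacked lineage markers were sorted, and a reporter tied to collagen expression limits the sample to cells that use that promoter. Ages of the mice were not given in the sources used here.

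Glutathione S-transferases join glutathione, the main small thiol of cells, to reactive electrophiles such as drug metabolites and aldehydes from oxidised lipids. The conjugates are then exported and broken down. The cytosolic enzymes are grouped by sequence into classes named mu, alpha, theta, pi, omega, zeta and sigma, while the kappa enzyme has a separate origin and lies in mitochondria and peroxisomes. In lung, these enzymes are known best from airway epithelium, and many of the genes can be induced through the transcription factor NRF2.

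Expression was measured by SAGE, serial analysis of gene expression, in which a short tag beside the last cutting site of each transcript is counted. How tags were matched to genes bears on a family of close copies, so the expected tag of each member was read from GENCODE M21 transcripts (GRCm38). With the cutting site and tag length not given in the sources used here, CATG and 27 bases were assumed, which are usual for this kind of library. The tags of the members that the results turn on, and of Gstp2, are shown with the site in capitals.
Gstm1: CATGgccccttcttcattggctccctg
Gstm2: CATGagtgctctgctggccctagctct
Gstm5: CATGtgccgttttgaggctttggagaa
Gstt1: CATGacctcaactataatcactacttt
Gsta4: CATGtatgcagatggcacccaggacct
Gstk1: CATGttatttgggtctgaccgcttgga
Gsto1: CATGtctgaaaactgtgatttccccat
Gstp1: CATGtgaaccgtcccatcaatggcaat
Gstp2: CATGtgaaccgtcccatcaatggcaat

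For 9 of the 10 members, the tag occurred in the transcripts of no other gene, also when 2 mismatches were allowed. This held for Gstm1 and Gstm2 although their coding sequences are 85.9% identical. The exception was Gstp1, whose tag is the same as that of Gstp2 and also lies in another gene model, Gstp-ps. The coding sequences of Gstp1 and Gstp2 are 98.1% identical. The table nevertheless gives Gstp1 8 counts and Gstp2 629 counts in the saline library, so how their tags were divided is not known and these rows are read together further on.

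In the bleomycin library, most of these transferases stood lower than in the saline library. Gstm1, a mu-class enzyme and the most abundant member in the saline library, was 7.41-fold lower (6.18 to 8.94). Gsta4, Gstk1, Gstt2, Gstm2 and Gstt1 were 6.67-fold to 2.45-fold lower. Gsto1, the omega-class enzyme, was the only member with a ratio above 1, at 1.80 (1.35 to 2.41). Each bracket holds the exact 95% interval of a between-library ratio, which covers counting error only. Where a pair of tag counts is given, saline comes first. A call needed an adjusted p under 0.05 in an exact binomial test over all genes and a difference of at least 2-fold. By that rule 6 of the 10 members were called lower and 0 higher, against 8.52% lower, 8.08% higher and 16.6% in either direction among the 9369 genes tested. Adjusted p-values of the exact binomial test were 1.7e-26 for Gstt1, 4.25e-24 for Gstm2, 1.05e-06 for Gstk1, 0.000283 for Gsta4 and 0.0109 for Gstt2. All 10 members had enough counts to be tested, and their median log2 ratio was -1.31, against 0.02 for all tested genes. With 1 library per group the differences have no replicate check, and the test compares these libraries and not the treatments. When a coefficient of variation of 0.4 between preparations was assumed in edgeR, 0 members were called, and with 0.2 the same genes except Gstt2 were called lower. Because RNA from many cells was pooled, fewer cells of a type and less RNA per cell cannot be told apart.

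**Figure D1:**
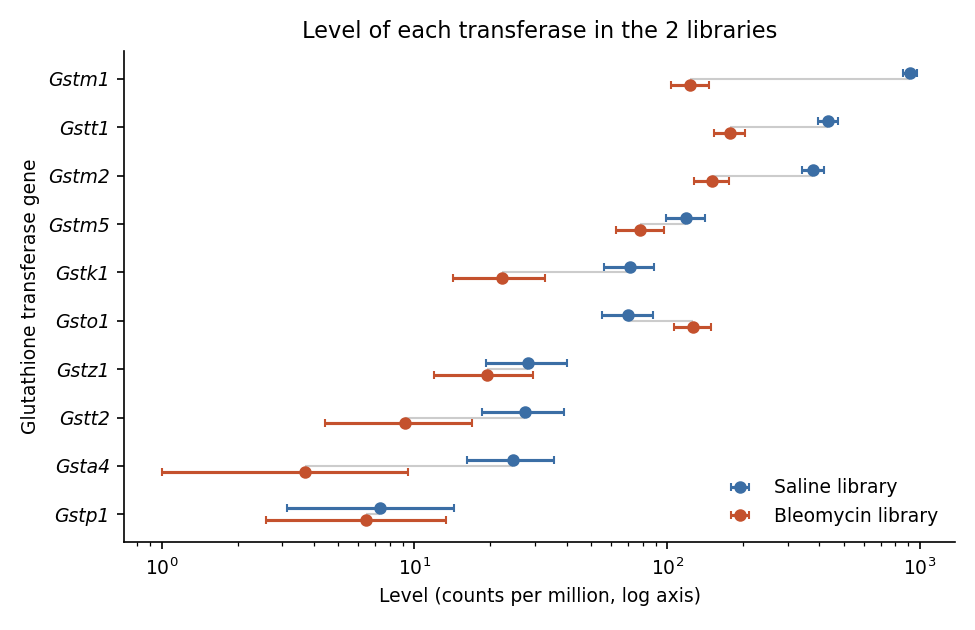
Level of each of the 10 transferases in CPM (counts scaled to a common library size) on a log axis, in the saline library (blue) and the bleomycin library (red); bars are exact Poisson 95% intervals of the count. Gstm1 stands at 915.7 under saline and 123.6 under bleomycin, and Gsto1 is the only gene whose red point lies to the right.

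The libraries were of similar depth, with 1080798 counts under saline and 1099840 under bleomycin, and 1 count was worth 0.912 and 0.922 CPM. The 6 fibroblast genes were abundant in both, with 2 called higher and 1 lower. Col1a1, at 2714 and 7925 counts, and Col1a2, at 1636 and 5613, were the higher ones. Dcn, at 4861 and 1606 counts, was 2.99-fold lower, and Col3a1, Pdgfra and Lum were not called. The leukocyte gene Ptprc had 0 and 1 counts. Markers of several other cell types were lower in the bleomycin library, as most of the transferases were. The 10 endothelial markers summed to 461.5 CPM under saline and 27.7 under bleomycin, with 8 of 8 tested genes called lower and Emcn at 0 in both. The club and ciliated cell markers in the table, 8 of 10, summed to 739.7 and 200.2 CPM, with 4 of 4 tested genes lower. Tppp3, at 488.0 and 141.1 CPM, and Aldh1a1, at 149.6 and 27.7 CPM, made up most of that sum. The secretory marker Scgb1a1 gave 46 and 12 tags, Cyp2f2 had 5 and 2, Scgb3a1 had 2 and 1, Foxj1 had 0 and 3, and Bpifa1 was at 0 in both. Alveolar epithelial markers summed to 168.7 and 17.5 CPM, of which Sftpc gave 154 and 7 counts, with Sftpd, Lamp3 and Ager at 0 in both. The 8 leukocyte markers in the table summed to 14.6 and 3.69 CPM, with Marco, Itgax and Cd3e at 0 in both, and the 4 erythroid ones to 26.4 and 6.46 CPM. Smooth muscle and pericyte markers summed to 933.9 and 1490 CPM, with 2 of 10 tested genes higher and 5 lower and a median log2 ratio of -0.996. The higher genes were Postn, at 213 and 638 tags, and Des, at 169 and 571. Both count in that sum, which went up while the median of the list lay below 0. The pericyte markers Cox4i2, at 43 and 4 tags, Higd1b, at 44 and 6, and Lamc3, at 29 and 4, were called lower. So were the smooth muscle genes Myh11 and Cnn1. The rest of the list was not called: Cspg4, at 31 and 49 tags, Notch3, at 15 and 8, and Actg2, at 226 and 225. The pericyte and smooth muscle genes thus did not share a direction. Mesothelial markers summed to 148.7 and 129.1 CPM, with 0 of 1 called. The part of these cells in the transferase values was not tested.

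The mu class held most of the counts of the 10 genes in the saline library. Gstm1, which conjugates a wide range of electrophiles, gave 1004 tags under saline against 134 under bleomycin. That moved it from rank 178 to rank 1189 among the genes of the table, and its adjusted p was 6.28e-161 in the exact binomial test. Only 1.02% of tested genes had a smaller log2 ratio. Gstm2, its closest relative among the members, gave 415 and 163 tags, 2.52-fold lower (2.10 to 3.04). Gstm5, a more distant mu gene with 70.7% of its coding bases identical to Gstm2, gave 130 and 85 tags. Its ratio of 0.661 (0.497 to 0.876) lay below 1 but did not reach 2-fold, so it was not called. These 3 genes together went from 1413 to 352.3 CPM, which is 4.01-fold lower (3.58 to 4.50).

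The mu genes did not share a single ratio. Relative to Gstm1, the change of Gstm2 was 2.94 times as high (2.26 to 3.83) and that of Gstm5 was 4.89 times as high (3.48 to 6.88). These ratios of ratios come from the counts of the paired genes alone and do not depend on how library sizes were scaled. All mu genes lie on chromosome 3, where RefSeq places the transferases in the order Gstm5, Gstm7, Gstm6, Gstm3, Gstm2, Gstm1 and Gstm4. Gstm7 gave 25 and 10 tags, a ratio of 0.405 (0.173 to 0.872) that was not called, and Gstm6 had 53 and 16 and was 3.28-fold lower (1.84 to 6.14). Gstm4 gave 1 and 0 tags, and Gstm3 was not analysed here. Every tested gene of this cluster thus had a ratio below 1, from 0.661 for Gstm5 at its edge to 0.135 for Gstm1.

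Among alpha genes, Gsta4 is known for conjugating hydroxynonenal, a toxic aldehyde from oxidised lipids. It gave 27 tags under saline against 4 under bleomycin and was 6.67-fold lower (2.33 to 26.3). The interval is wide because the lower count is small, and the gene was not called under Bonferroni adjustment. Gsta3, another alpha enzyme outside the 10 genes, was more abundant at 348 and 125 counts and was 2.75-fold lower (2.24 to 3.40). With it included, the alpha sum was 2.87-fold lower (2.35 to 3.54).

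Theta genes gave ratios close to that of Gstm2. Gstt1, which acts on small halogenated compounds, gave 476 and 192 tags, making it the most abundant member of the bleomycin library, and was 2.45-fold lower (2.07 to 2.91). Gstt2, a theta enzyme with activity towards sulphate esters, gave 30 and 10 tags, 2.97-fold lower (1.41 to 6.8), a call lost under Bonferroni adjustment. Gstt3 precedes Gstt1 in the RefSeq order of transferases on chromosome 10. It gave 42 and 21 tags, at a ratio of 0.506 (0.284 to 0.873), just short of 2-fold. Between Gstt1 and Gstm2 the ratio of ratios was 1.03 (0.796 to 1.33), so their changes could not be told apart at this depth.

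The kappa and zeta enzymes have roles beyond the conjugation of foreign compounds. Gstk1, found in mitochondria and peroxisomes, gave 78 and 24 tags, 3.21-fold lower (2.01 to 5.31). Gstz1, which isomerises maleylacetoacetate during tyrosine breakdown, gave 31 and 21 tags. Its ratio of 0.685 (0.374 to 1.23) held 1 and was not called. Fah, the last enzyme of that route and its only other tested gene, was not called either, at 36 and 24 counts, with a ratio of 0.674 (0.385 to 1.16).

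The pi class was the part of the family with the least certain assignment. Gstp1 gave 8 and 7 tags, with a ratio of 0.885 (0.273 to 2.79) that says little at this depth. Gstp2, which carries the same tag, gave 629 and 492 tags, at a ratio of 0.791 (0.702 to 0.891). Summed, the pair gave 637 and 499 tags, or 581.0 and 460.3 CPM, and was 1.26-fold lower (1.12 to 1.42), which is short of the required 2-fold. The pair therefore stood above the sum of the 6 mu genes analysed, members and others, in the bleomycin library, at 460.3 against 376.3 CPM. In the saline library that mu sum was the higher, at 1485 against 581.0. SAGE counts a single site per transcript, so these levels were not divided by gene length.

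Gsto1 differed in direction from the rest. The omega enzyme reduces dehydroascorbate and removes glutathione from protein thiols rather than mainly forming conjugates. It gave 77 tags under saline against 137 under bleomycin, and the adjusted p of its exact binomial test was 0.000235, but its ratio of 1.80 stayed under 2. Among the alternatives run, it was called only when the required difference was lowered to 1.5-fold. Relative to Gstm1 its change was 13.3 times as high (9.43 to 18.8), and relative to Gstt1 4.40 times (3.15 to 6.20). The other omega gene, Gsto2, was at 0 in both libraries, with upper limits of 3.36 CPM under saline and 3.40 CPM under bleomycin.

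**Figure D2:**
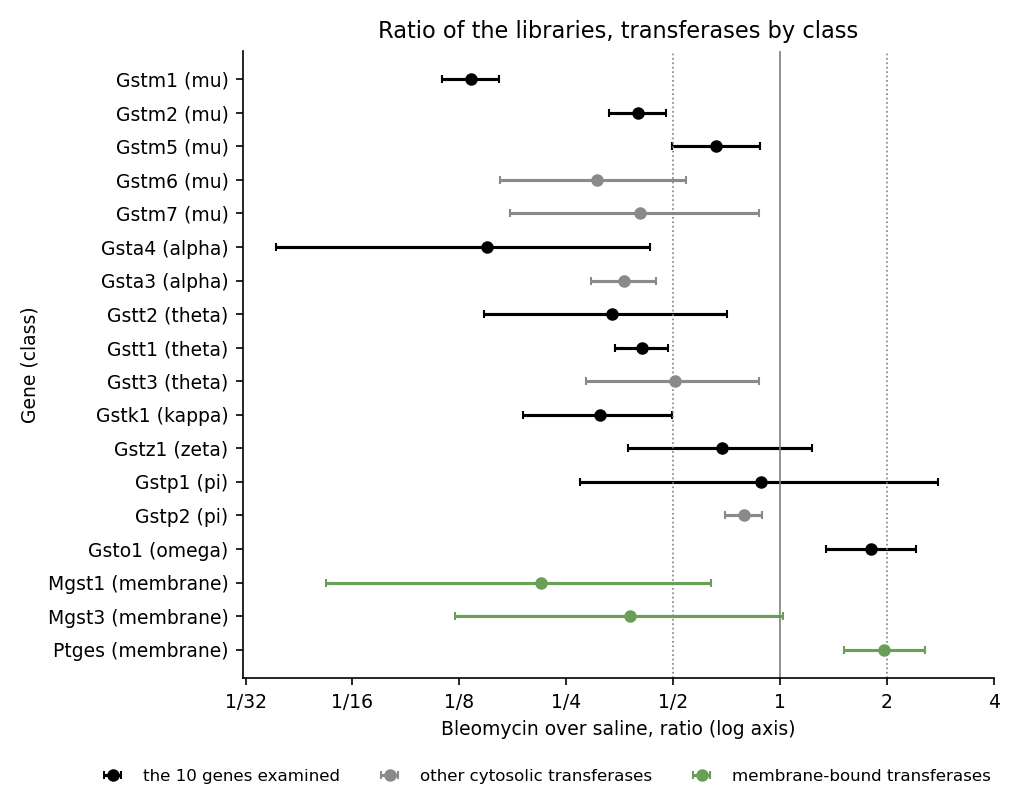
Ratio of the bleomycin to the saline library on a log axis for each tested transferase, grouped by class, with exact 95% intervals; the solid line marks equal levels and the dotted lines a 2-fold difference. All tested mu, alpha, theta, kappa and zeta genes lie left of the solid line, while Gsto1 at 1.80 and Ptges at 1.97 lie right of it.

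Of the 45 pairs of members, 22 had ratios whose exact interval of the ratio of ratios excluded 1 and 23 did not, without adjustment for the number of pairs. Gstm1 was apart from every other member except Gsta4. Gsto1 was apart from every other member except Gstp1, whose count was small. After Benjamini-Hochberg adjustment over the pairs, Fisher's exact test no longer set apart Gstt2 and Gstm1, Gstp1 and Gsta4, or Gstz1 and Gstk1. The pairs formed by Gstm2, Gstt1, Gstt2 and Gstk1 all had intervals that held 1, with upper limits reaching 2.83.

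The make-up of the 10 genes differed accordingly. Gstp2, at 629 and 492 counts, and Gsta3, at 348 and 125, lie outside these shares, which are not those of the whole family. Gstm1 gave 44.1% (42.1 to 46.2) of the counts of the 10 genes in the saline library and 17.2% (14.7 to 20.1) in the bleomycin library. Gsto1 gave 3.38% (2.68 to 4.21) and 17.6% (15.0 to 20.5). Gstt1 was nearly level, at 20.9% (19.3 to 22.6) and 24.7% (21.7 to 27.9). Intervals here are exact binomial ones. As a whole, the 10 genes held 0.211% of all counts under saline and 0.0706% under bleomycin, and their sum was 2.90-fold lower (2.67 to 3.15). Without Gstm1 the sum was 1.96-fold lower (1.78 to 2.15). With the other cytosolic transferases in the table added, 19 genes in all, it was 2.32-fold lower (2.18 to 2.47), from 3378 to 1442 counts.

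**Figure D3:**
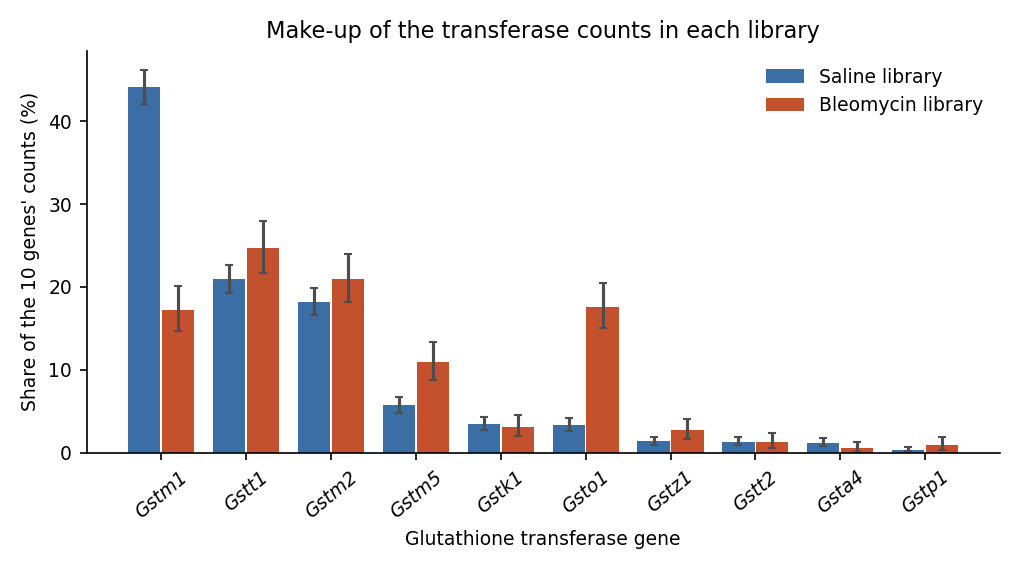
Share of the summed counts of the 10 transferases that each gene gave, in percent, in the saline (blue) and bleomycin (red) libraries; error bars are exact binomial 95% intervals. Gstm1 drops from 44.1% to 17.2% and Gsto1 goes from 3.38% to 17.6%.

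Among all tested genes, the members spanned a wide range of levels, and the lower ratios were not limited to rare transcripts. Gstm1, Gstm2 and Gstt1 each had more than 100 counts in both libraries and log2 ratios of -2.88, -1.33 and -1.29. The members with few counts, Gsta4, Gstt2 and Gstp1, lay where the ratios of all genes scatter most.

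**Figure D4:**
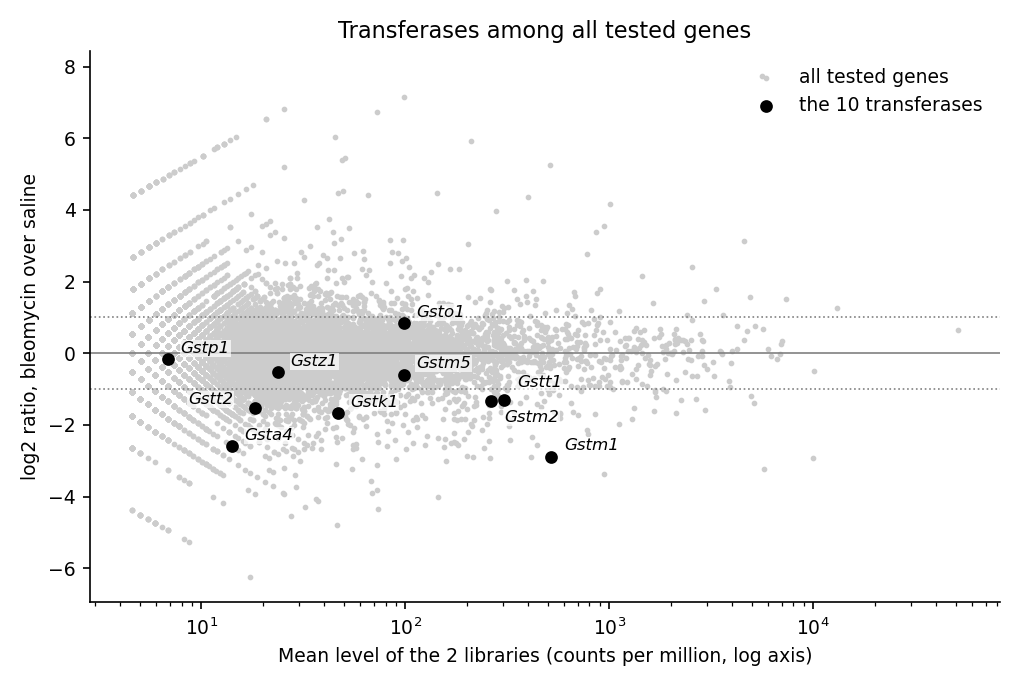
Log2 ratio of bleomycin to saline against the mean level of the 2 libraries (CPM, log axis) for all tested genes (grey) and the 10 transferases (black); dotted lines mark a 2-fold difference. Gstm1 lies at -2.88 near the lower edge of the cloud at its level, and Gsto1 is the only black point above 0.

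The membrane-bound transferases belong to another protein family that also uses glutathione. Mgst1, the microsomal enzyme, gave 19 and 4 tags, 4.70-fold lower (1.56 to 19.0). Mgst3 gave 16 and 6 tags, at a ratio of 0.379 (0.122 to 1.02) that was not called. Ptges, the inducible prostaglandin E synthase of this family, gave 91 and 177 tags, at a ratio of 1.97 (1.52 to 2.56), just under the required 2-fold. Mgst2, with 4 and 4 counts, and Ltc4s, with 3 and 2, were too low to be tested, and Alox5ap was at 0 in both.

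Genes that make and recycle glutathione were called at a share near that of all tested genes, 16.6% in either direction, so their counts are no result about these lists. Of 8 tested genes for glutathione synthesis and cysteine supply, 1 was called higher and 0 lower, and the median log2 ratio was -0.46. The higher gene was Gss, glutathione synthetase, at 1 and 11 counts and 11.1-fold higher (1.62 to 479). Gclc, the catalytic subunit of the rate-limiting ligase, gave 19 and 22 tags, at a ratio of 1.17 (0.605 to 2.29). Gclm, its modifier subunit, gave 4 and 14 tags, at a ratio of 3.54 (1.11 to 14.8) that was not called. Of 12 glutathione redox genes, 1 was higher and 0 lower, and their median log2 ratio was 0.15. Gsr, the reductase that regenerates glutathione, gave 15 and 40 tags, 2.70-fold higher (1.46 to 5.26). The differences in calls between these lists and the transferases were not tested.

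Enzymes that degrade glutathione and its conjugates were called in both directions. Of 7 tested genes, 2 were lower and 2 higher, against 8.52% and 8.08% of all tested genes. Dpep1, a membrane dipeptidase, acts on breakdown products of glutathione conjugates, such as leukotriene D. It gave 1179 and 353 tags, 3.30-fold lower (2.93 to 3.73). Ggt1, which starts conjugate breakdown at the cell surface, gave 18 and 3 tags, 5.93-fold lower (1.73 to 31.4). The peptidases Cndp2 and Lap3 were 2.90-fold (1.91 to 4.52) and 2.19-fold higher (1.5 to 3.24).

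Among 10 tested regulators of the NRF2 pathway, which can induce transferases, 1 was called higher and 2 lower. Over all tested genes the shares were 8.08% higher and 8.52% lower. Nfe2l2, which encodes NRF2, gave 29 and 11 tags, 2.61-fold lower (1.26 to 5.78). Keap1, its inhibitor, gave 47 and 27 tags, at a ratio of 0.581 (0.348 to 0.952) that was not called. The small Maf gene Maff, at 329 and 111 counts, was 2.93-fold lower (2.36 to 3.67), and Bach1, a repressor at the same sites, was 2.16-fold higher (1.37 to 3.49). Of 21 tested NRF2 target genes, 2 were higher and 1 lower, a share near the 16.6% of all tested genes, and their median log2 ratio was 0.20. Akr1b8, an aldo-keto reductase, was 2.91-fold higher (2.11 to 4.09) and Gsr was the other higher gene, while Osgin1, an oxidative stress response gene, was 3.85-fold lower (1.81 to 9.10). Nqo1, the quinone reductase often used as a readout of NRF2, had 6 counts in each library.

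Drug-metabolism enzymes that act before conjugation were mostly lower. Of 14 tested oxidising enzymes, 11 were called lower and 1 higher, against 8.52% and 8.08% of all tested genes. The median log2 ratio of these enzymes was -1.97. The most abundant of the lower genes were the alcohol dehydrogenase Adh1, 3.26-fold lower (2.93 to 3.64), the mitochondrial aldehyde dehydrogenase Aldh2, 3.97-fold lower (3.22 to 4.94), and the flavin monooxygenase Fmo2, 3.57-fold lower (2.81 to 4.56). Cyp1b1, a cytochrome monooxygenase, was 2.17-fold higher (1.48 to 3.23). Of 14 tested genes that clear aldehydes, a task shared with Gsta4, 6 were lower and 1 higher. Besides Aldh2, they included Aldh1a1, 5.41-fold lower (3.65 to 8.27), which is also a marker on the club and ciliated cell list, and Akr1b10, 2.08-fold lower (1.18 to 3.81). Akr1b8 was the higher gene, and 3 of the 6 lower genes, Aldh2, Aldh1a1 and Aldh3a1, are also on the list of oxidising enzymes. The club and ciliated cell markers, summing to 739.7 and 200.2 CPM with Aldh1a1 among them, and the endothelial markers, to 461.5 and 27.7 CPM, were lower in the same library, and their part was not tested.

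**Figure D5:**
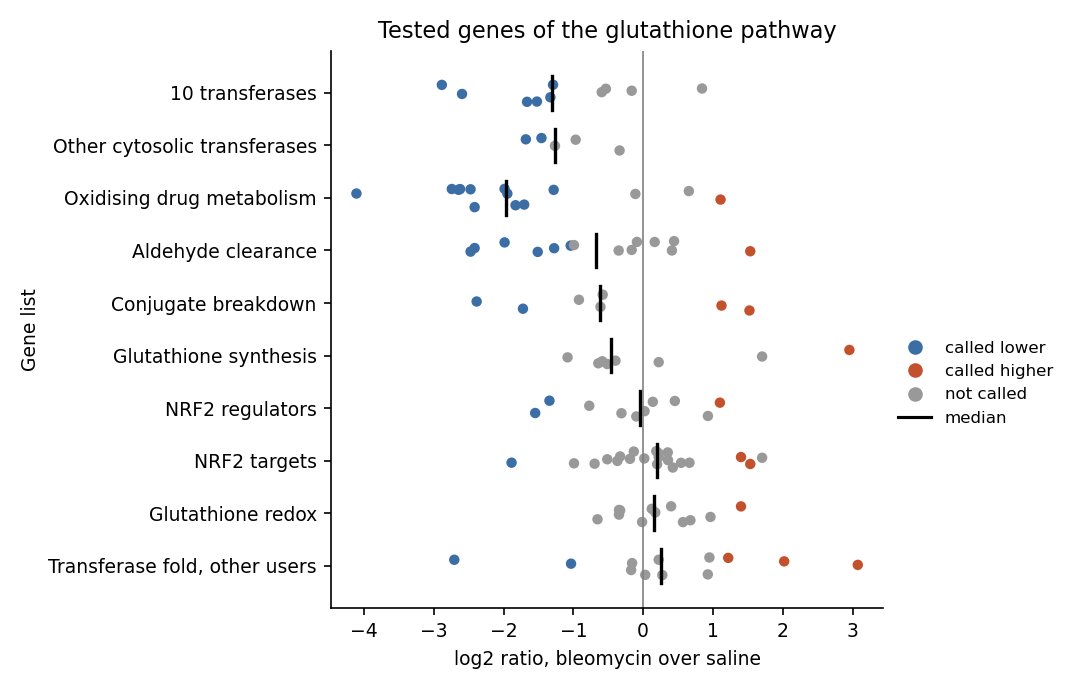
Log2 ratio of bleomycin to saline for the tested genes of 10 lists around glutathione, each point a gene, blue if called lower, red if called higher and grey otherwise, with the list's median as a black bar. The medians of the 10 transferases (-1.31) and of oxidising enzymes (-1.97) lie left of 0, while those of NRF2 targets (0.20) and glutathione redox genes (0.15) lie slightly right.

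Promoter sequence was examined because many transferases carry an antioxidant response element, the site that NRF2 binds. RefSeq promoters (GRCm38.p6) ran from 250 bases before to 50 after the start. They were held for 8 of the 10 members, all but Gsta4 and Gstt2, with 10 entries. The core TGACNNNGC, searched on both strands, was found in 1 of these entries, against 12.4% of 32851 promoters of the same length. The AP-1 site TGACTCA was found in 2 entries, those of Gstm5 and Gstp1, against 5.20% of all promoters. Gstm5 held both, the core beginning 42 bases and the AP-1 site 176 bases before the start, at separate places. Among the 8 members with an entry, Gstm5 alone held the core in the form searched. Forms with another letter in place of the C were not searched, so the other members are not shown to lack the element. In the Gstp1 entry the AP-1 site lies in TGAGTCAgc, which differs from the searched core only at that letter. The Gstm5 promoter, at chr3:107895604-107895903 on the plus strand, is shown with both motifs in capitals.
Gstm5: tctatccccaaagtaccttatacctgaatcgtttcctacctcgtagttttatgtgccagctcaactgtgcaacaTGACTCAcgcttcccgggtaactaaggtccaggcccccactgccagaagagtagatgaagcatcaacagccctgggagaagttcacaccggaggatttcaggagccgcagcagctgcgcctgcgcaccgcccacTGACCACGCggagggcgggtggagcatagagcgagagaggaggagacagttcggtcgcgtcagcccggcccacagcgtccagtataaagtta
Gstm1, the member with the smallest ratio, had neither motif in its entries. A match is a description of the letters in this window only.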

How the data were processed

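The authors deposited whole-number tag counts per gene for 2 libraries, per the file headers. BWA 0.6.2 and mm9 are named, without a role, per the submitters' processing notes. Tag assignment, use of strand and any scaling were not given in the sources used here. Tests assume raw values. Leaving out 1 blank line gave 16040 genes. Entries named by a phrase (33, with 0.860% of counts) stayed in totals and tests but were matched to no gene.

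Library sizes were scaled by TMM, a trimmed mean, with edgeR 4.0.16 under R 4.3.3. Its quasi-likelihood test could not be fitted to single libraries. Genes with at least 10 counts over both libraries had a two-sided exact binomial test, adjusted by the Benjamini-Hochberg method over 9369 genes. Calls required at least 2-fold and an adjusted p below 0.05, with 0.5 added to each count for log2 ratios. Ratios have Clopper-Pearson 95% intervals, levels exact Poisson ones and ratios of ratios exact conditional ones, for counting error only. A count of 0 was given the upper limit of its Poisson interval. The test was checked on data simulated with counting error only, which cannot show how it behaves under variation between preparations. Python 3.11.15, scipy 1.17.1 and, for pairwise alignment, Biopython 1.88 were used. DESeq2 1.42.0 gave an alternative scaling.

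The 10 members and 21 gene lists were chosen with earlier results of these data known. Named genes were the members, other transferases with at least 10 counts, 6 glutathione and NRF2 genes, and called genes of each list, all where 6 or fewer and otherwise the 3 most abundant per direction, or the most abundant gene of a list with no call. Other genes were named after their values were seen. The planned protein comparison was made on coding sequences. One list is not reported here.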

Additional observations from a re-analysis of the deposited data

How the results depend on the processing

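Scaling by total counts, DESeq2 size factors or totals without the 100 most abundant genes left the same 6 members called lower and the median of all genes between -0.03 and 0.04 on the log2 scale. No minimum count and a prior count of 5 also left the same 6. Of 107 values of single members under the alternatives, 93 kept their side of the call, 12 lost it and 2 gained it. None changed sign, but only the scalings and the prior count could alter a ratio, and the other settings left it as it was. Members called lower numbered 3 at a required 3-fold difference and 0 with an assumed coefficient of variation (CV) of 0.4 in edgeR's exact test, and 1 was called higher at 1.5-fold. A minimum of 50 counts and Bonferroni adjustment each left 4 of the 6, Gstm1, Gstm2, Gstt1 and Gstk1. Calls over all genes, higher then lower, were 396 and 484 at a minimum of 50 counts, 443 and 445 at 3-fold, 288 and 333 with Bonferroni adjustment, 275 and 333 at CV 0.2, and 21 and 8 at CV 0.4. Pathway genes are those of all lists other than the members and the cell markers, each counted once. Their calls are given only to show the effect of the settings and were not compared with the share over all genes. The 11 higher calls among pathway genes became 4 at 3-fold, 3 with Bonferroni adjustment, 3 at CV 0.2 and 0 at CV 0.4. The 25 lower ones became 15 at a minimum of 50 counts, 14 with Bonferroni adjustment, 14 at CV 0.2 and 0 at CV 0.4. No library could be left out, because each group has 1. Depth limits Gstp1, Gsta4 and Gstt2 most, with 15, 31 and 40 counts in all.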

Other observations

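Other conjugating enzymes, beside the transferases, were led by Inmt, an indolethylamine methyltransferase abundant in lung. It gave 11323 tags under saline against 1197 under bleomycin and was 9.35-fold lower (8.81 to 9.94). Ephx2, soluble epoxide hydrolase, gave 1 and 12 tags, 12.1-fold higher (1.8 to 519). These were the only calls among 7 tested genes of that list, against 16.6% called in either direction among all tested genes.

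Proteins that share the transferase fold or otherwise use glutathione were called in both directions. Of 12 tested genes, 3 were higher and 2 lower, against 8.08% and 8.52% of all tested genes. The median log2 ratio of the list was 0.25. Eef1g, a translation elongation factor subunit with a transferase-like domain, gave 136 and 547 tags, 4.07-fold higher (3.37 to 4.94). Eef1e1, a related part of the aminoacyl-tRNA synthetase complex, was 12.1-fold higher (1.8 to 519) from 1 count, and the chloride channel family protein Clic1 was 2.35-fold higher (1.52 to 3.70). Clic4, of the same family, gave 783 and 378 tags, 2.05-fold lower (1.81 to 2.32), and Ethe1, a mitochondrial persulphide dioxygenase, was 7.91-fold lower (1.86 to 70.9).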
